A study of Mus musculus with 16 samples.

Results

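The genes described here were 10 long noncoding RNAs, most of them nuclear and 5 of them imprinted, and they were found by their symbols among the 24060 genes listed for every library. They were Malat1, Neat1, Meg3, Rian, Mirg, Kcnq1ot1, Peg13, Miat, Tug1 and Pantr1. All 10 were detected in all 16 libraries and passed the filter of a mean above 1 CPM (reads counted on a gene, scaled to the total of the library). Of the 10, Peg13, Meg3, Rian, Miat and Neat1 had the lowest levels in ribosome-bound RNA of astrocytes relative to whole tissue. In naïve mice they were from 8.80-fold to 3.15-fold lower there, while Pantr1 was 1.63-fold higher. Such a ratio mixes the level of an RNA in astrocytes with its binding to ribosomes. Meg3, Miat and 5 of the others were low together in a few libraries, and none of the 10 passed the threshold for a change with stress. They were picked with their levels in these libraries already known, so their ratios between fractions and their spread between libraries are given below as descriptions, with no test.

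The RNA came from the somatosensory cortex of C57BL/6J mice aged 3 months that carried Aldh1l1CreERT2 and RiboTag. RiboTag adds an HA tag to the ribosomal protein Rpl22 wherever Cre has acted, and here the Aldh1l1 promoter, active in astrocytes, drove a Cre that needs tamoxifen, which all the mice received. The immunoprecipitate (IP) holds RNA recovered with the tagged ribosomes, and the INPUT is the cleared lysate, with RNA of all cell types. Stressed mice swam for 20 min and rested for 90 min, naïve mice (labelled control) stayed in the home cage, and each fraction had 4 libraries from naïve and 4 from stressed mice. Libraries keep their sample numbers from 1 to 16 as replicate numbers. Which IP and INPUT libraries came from the same mouse, and the sex of each mouse, are not in the labels, and the labels and the methods give different intervals after tamoxifen.

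Long noncoding RNAs are transcribed, and often spliced, like messenger RNAs but are not known to code for a protein, and many of them stay in the nucleus. Malat1 gathers in nuclear speckles, where splicing factors are stored, and Neat1 is the scaffold of paraspeckles. Imprinted genes are read from only the maternal or only the paternal chromosome, and several imprinted regions hold a long noncoding RNA that is read from the opposite parental copy to its coding neighbours.

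Reads counted on genes ranged from 16392876 to 25814364 per library (median 21167241), so that 3 reads stood for at most 0.183 CPM. The lowest value of any of the 10 RNAs was 28 reads, for Mirg in stress IP 15. The 10 RNAs took 0.269 to 0.436% of the reads in naïve IP, 0.201 to 0.539% in stress IP, 0.727 to 0.997% in naïve INPUT and 0.458 to 1.19% in stress INPUT, and Malat1 alone made up 64.3 to 83.1% of these reads. The fractions were checked with marker genes. In naïve mice all 7 astrocyte markers were higher in IP than in INPUT (median log2 ratio 3.47) and all 8 neuron markers were lower (median −4.19). All markers of oligodendrocyte precursors, microglia and endothelial cells were lower as well. Of those tested, 1 of 6 oligodendrocyte, 1 of 3 mural and 1 of 2 choroid plexus markers were higher in IP.

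Before any comparison, 4 libraries have to be set apart. Malat1, Neat1, Meg3, Rian, Mirg, Kcnq1ot1 and Miat each had the lowest value of their group in naïve IP 11, in stress IP 15, in naïve INPUT 14 and in stress INPUT 9. Peg13, Tug1 and Pantr1 were not the lowest of their group in either IP library, although Tug1 was in naïve INPUT 14 and Pantr1 in stress INPUT 9. Set against the mean of the other 3 libraries of its group, stress IP 15 held 7 of the 10 RNAs at a level at least 2-fold lower, where 0.810% of 11115 genes with a mean above 5 CPM were that low. In stress INPUT 9 there were 6 such RNAs (0.603% of genes) and in naïve IP 11 there were 4 (0.225%). Naïve INPUT 14 had 0 (0.0540%), with its largest difference at −0.84 on the log2 scale for Mirg, and the other 12 libraries had 0 as well. There the share of genes was 0.0630, 0.171 and 0.0900% in naïve IP 2, 8 and 13, and 0.270, 0.243 and 0.108% in stress IP 4, 5 and 6. It was 0.108, 0.0360 and 0.0360% in naïve INPUT 3, 7 and 16, and 0.0900, 0.0360 and 0.0270% in stress INPUT 1, 10 and 12. The 10 RNAs were chosen with this pattern known, so the counts describe these libraries and test nothing.

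**Figure D1:**
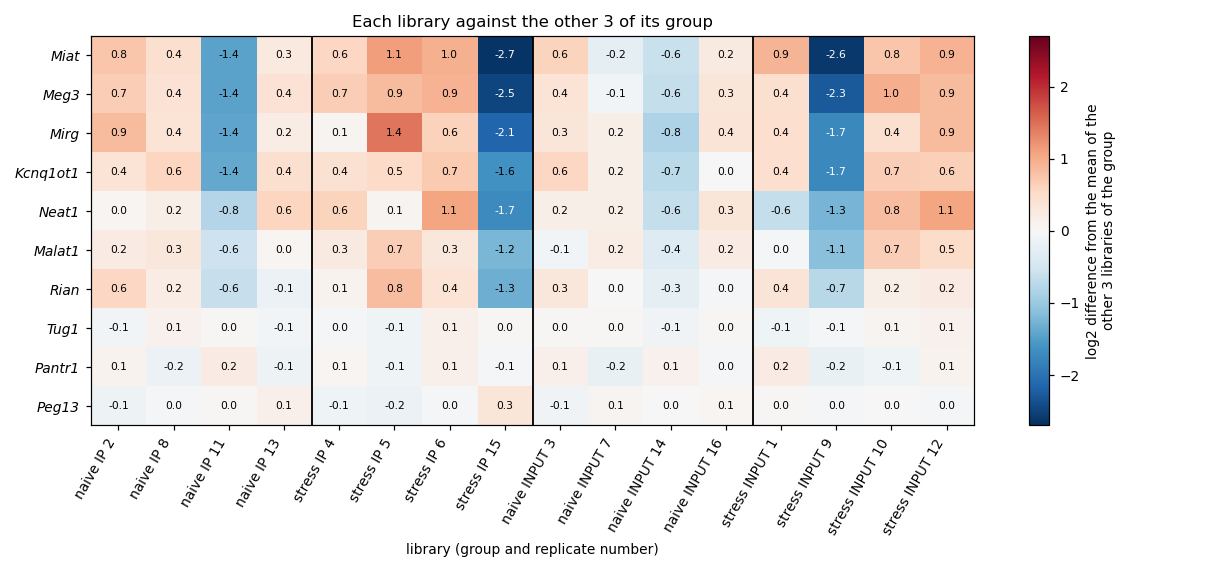
Log2 difference of each RNA (rows) in each library (columns, by group and replicate number) from the mean log2(CPM + 0.1) of the other 3 libraries of its group, with blue for lower and red for higher. The upper 7 rows are blue in naïve IP 11, stress IP 15 and stress INPUT 9, down to −2.65 for Miat in stress IP 15, whereas Tug1, Pantr1 and Peg13 stay between −0.21 and 0.34.

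In these 4 libraries, reads on genes numbered 25533604 in naïve IP 11, 24887097 in stress IP 15, 20051450 in naïve INPUT 14 and 23412103 in stress INPUT 9. The summed level of the 8 neuron markers was 562 CPM in stress IP 15, the highest of its group (394.9 to 562 CPM), and 12280 CPM in stress INPUT 9, also the highest of its group (10620 to 12280 CPM). In naïve IP 11 it was 533 CPM, within the 475 to 609 CPM of its group, and in naïve INPUT 14 it was 11160 CPM, the highest of its group. The 7 astrocyte markers summed to 5880 CPM in naïve INPUT 14, the lowest of its group, and to 95300 CPM in naïve IP 11, the highest. None of the 8 neuron markers and none of the 7 astrocyte markers was at least 2-fold lower in naïve IP 11, stress IP 15 or stress INPUT 9, and none of either list was at 0 in any library. Of the 6 oligodendrocyte markers, 1 was that low in stress IP 15. The summed astrocyte markers of stress IP 15 (87320 CPM) were the lowest of its group, which reached 99170 CPM, and its 5 microglia markers summed to 30.6 CPM, the highest of a group that began at 17.5 CPM. The 5 endothelial markers were the lowest of the group in stress IP 15 (8.52 CPM), naïve INPUT 14 (51.5 CPM) and stress INPUT 9 (43.2 CPM). In naïve IP 11 they summed to 17.3 CPM, the highest of a group that began at 10.1 CPM. Markers of mural cells (200.6 CPM) and of oligodendrocyte precursors (29.5 CPM) were also highest of the group in naïve IP 11. Both were highest in stress IP 15 as well (160.7 and 24.5 CPM). In stress INPUT 9 precursor (138 CPM) and microglia markers (249 CPM) were the highest of the group. Mural markers were the lowest of the group in naïve INPUT 14 (109 CPM) and stress INPUT 9 (105 CPM). Choroid plexus markers were the lowest of the group in stress IP 15 (1.33 CPM) and stress INPUT 9 (3.08 CPM). Xist, the RNA that coats the inactive X chromosome of female cells, was at or below 0.456 CPM in 8 libraries, among them these 4, and at or above 122 CPM in the other 8. The remaining libraries with low Xist were IP 13 and INPUT 7 of naïve mice with IP 6 and INPUT 12 of stressed mice. They held no RNA of the 10 at a level 2-fold lower, and neither did naïve INPUT 14. Whether depth, cell types or sex had a part in the pattern was not tested.

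Malat1 and Neat1 lie near each other on chromosome 19, at chr19:5795690-5802672 and chr19:5824708-5845478 of GRCm38, both on the minus strand and both annotated as unspliced in their longest transcript. Their 3′ ends are known to fold into a triple helix of U-rich and A-rich stretches that protects an end without a poly(A) tail. The 2 elements are shown because they are the best known sequence that these nuclear RNAs have in common. Capitals mark the 3 stretches of at least 10 bases that the last 500 bases of both transcripts share, in the same order. The sequences are those of GENCODE M21, at chr19:5795982-5796076 and chr19:5824708-5824808, read on the minus strand.
Malat1 U-rich element: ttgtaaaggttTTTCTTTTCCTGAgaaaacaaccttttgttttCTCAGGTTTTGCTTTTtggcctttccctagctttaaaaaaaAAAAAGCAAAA
Neat1 U-rich element: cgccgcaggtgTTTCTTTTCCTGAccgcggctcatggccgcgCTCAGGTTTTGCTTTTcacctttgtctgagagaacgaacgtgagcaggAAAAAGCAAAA
The longest shared stretch, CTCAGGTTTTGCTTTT, was found on the sense strand in 2 of 7500 long noncoding transcripts of at least 1000 bases (0.0267%), which are Malat1 and Neat1 themselves, and its reverse complement was in neither.

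Malat1, the most abundant of the 10 RNAs per kb in IP and INPUT of naïve mice, was at 2223, 3060, 3340 and 3500 CPM in naïve IP and at 1673, 3602, 3706 and 4476 CPM in stress IP. In INPUT it was at 5082, 5888, 6773 and 6853 CPM in naïve mice and at 3375, 5909, 7845 and 8568 CPM in stressed mice. The naïve IP values all lay below the naïve INPUT values, while in stressed mice the fractions overlapped through stress INPUT 9. Its log2 ratio of IP over INPUT was −1.03 (standard error 0.13) in naïve and −0.94 (0.32) in stressed mice, a level about 2.04-fold and 1.91-fold lower in IP.

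Neat1, about which paraspeckles assemble, was at 4.03, 6.31, 6.72 and 8.41 CPM in naïve IP and at 14.1, 21.2, 21.4 and 23.2 CPM in naïve INPUT. In stressed mice it was at 2.05, 5.33, 7.05 and 8.99 CPM in IP and at 7.95, 11.0, 23.7 and 26.8 CPM in INPUT. The fractions did not overlap in naïve mice and did in stressed mice, where INPUT 9 and INPUT 1 were the low ones. The log2 ratios were −1.65 (standard error 0.20) and −1.56 (0.45).

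Meg3, Rian and Mirg follow each other on the plus strand of chromosome 12, in the Dlk1-Dio3 imprinted region, and are read from the maternal chromosome. Meg3 spans chr12:109541001-109571726, Rian spans chr12:109603940-109661716 and Mirg spans chr12:109729764-109749460. They also host small RNAs: GENCODE places 2 miRNA genes within Meg3, 4 miRNA and 13 snoRNA genes within Rian, and 14 miRNA genes within Mirg. The counts here are of the genes as RefSeq lists them, not of the mature small RNAs.

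Meg3, a growth suppressor in several tumours, was at 166, 428.2, 428.4 and 498 CPM in naïve IP and at 82.9, 424, 468 and 488 CPM in stress IP. It was at 1104, 1482, 1830 and 1865 CPM in naïve INPUT and at 358, 1461, 1818 and 1933 CPM in stress INPUT. The highest value was 3.00-fold, 5.88-fold, 1.69-fold and 5.40-fold that of the lowest in these 4 groups, and in all but naïve INPUT a single library lay far below the other 3. The log2 ratio of IP over INPUT was −2.13 (standard error 0.28) in naïve mice, with no overlap, and −1.96 (0.60) in stressed mice, where INPUT 9 lay below 3 of the IP values. With stress IP 15 and stress INPUT 9 both left out, an alternative chosen after seeing the data, the stressed ratio of Meg3 was −1.91 with a standard error of 0.09.

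Rian, the host of a large C/D box snoRNA cluster, had the smallest spread of the 3. It was at 49.4, 63.0, 76.0 and 91.1 CPM in naïve IP and at 30.8, 64.1, 74.0 and 94.3 CPM in stress IP. Its INPUT values were 258, 292, 297 and 348 CPM in naïve and 207.5, 331, 343 and 366.5 CPM in stressed mice. Fractions did not overlap in either condition, and the log2 ratios were −2.12 (standard error 0.15) and −2.32 (0.28).

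Mirg, the host of a miRNA cluster, had the fewest reads. It was at 1.84, 4.42, 4.84 and 6.27 CPM in naïve IP (47 to 128 reads) and at 1.13, 3.79, 5.07 and 7.79 CPM in stress IP (28 to 158 reads). In INPUT it was at 5.79, 9.77, 10.7 and 10.8 CPM in naïve and at 4.10, 12.9, 13.0 and 16.1 CPM in stressed mice. The fractions overlapped in both conditions, and the log2 ratios were −1.16 (standard error 0.31) and −1.47 (0.53).

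The coding genes of the same imprinted region were near or below the limit of the data. In naïve mice the mean level of Dlk1, a Notch-related signalling protein, was 0.920 CPM for IP and 0.147 CPM for INPUT. For Dio3, which inactivates thyroid hormone, these means were 0.0610 and 0.618 CPM. Rtl1, a retrotransposon-derived gene, had no reads in naïve or stress IP, with a mean of 0.0659 CPM over naïve INPUT. None of them passed the filter, so the 3 noncoding RNAs were the measurable genes of that region in this list.

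Kcnq1ot1 is an unspliced RNA of 93.1 kb, at chr7:143203458-143296549 on the minus strand, read from the paternal chromosome and known to silence neighbouring genes there. It lies within the span of Kcnq1, a potassium channel gene of the other strand, and shares 121 exonic bases with it. Whether the counting used strand is not stated. Kcnq1 itself had naïve means of 0.0209 CPM for IP and 0.348 CPM for INPUT.

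Kcnq1ot1 was at 29.0, 72.0, 74.2 and 80.9 CPM in naïve IP and at 24.7, 71.5, 75.4 and 83.7 CPM in stress IP. In INPUT it was at 57.2, 84.2, 90.7 and 112 CPM in naïve and at 25.5, 80.1, 88.6 and 89.2 CPM in stressed mice. The fractions overlapped in both conditions, and it was the RNA of the set whose level differed least between them, with log2 ratios of −0.49 (standard error 0.28) and −0.13 (0.43). The sign of the stressed ratio depends on which library is left out (−0.57 without INPUT 9 and 0.27 without IP 15), and both ratios turn positive when libraries are rescaled by their median ratio (0.15 and 0.50) or by quantile normalization (0.05 and 0.41).

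Its coding neighbours differed among themselves. Cdkn1c, a cell cycle inhibitor read from the maternal chromosome, had naïve levels of 1.73 ± 0.958 CPM for IP and 8.40 ± 0.946 CPM for INPUT (SD, n = 4 each). Cd81, a tetraspanin of the cell surface, had a log2 ratio of IP over INPUT of 1.73 (standard error 0.05). Slc22a18, a membrane transporter, had naïve levels of 1.08 ± 0.250 CPM for IP and 0.302 ± 0.142 CPM for INPUT. Phlda2, a gene best known from the placenta, had no reads in naïve IP, with a mean of 0.0266 CPM over naïve INPUT.

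Peg13 is an unspliced RNA of 4.7 kb read from the paternal chromosome, at chr15:72805600-72810324, inside an intron of Trappc9 and on the same strand. It shares no exonic bases with Trappc9, but reads of unspliced Trappc9 RNA over this intron could not be told apart from its own. Peg13 was at 38.7, 40.6, 42.3 and 44.5 CPM in naïve IP and at 34.7, 35.6, 36.9 and 45.1 CPM in stress IP. The INPUT values were 346, 363, 376 and 379 CPM in naïve and 373, 374, 382.5 and 386 CPM in stressed mice. The fractions lay far apart and each group was tight, with stress IP 15 the highest of its group rather than the lowest. Peg13 had the lowest ratios of the 10 RNAs, −3.14 (standard error 0.06) in naïve and −3.32 (0.08) in stressed mice, or 8.80-fold and 9.99-fold lower in IP.

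Trappc9, the host gene, which codes for a subunit of a vesicle tethering complex, had naïve levels of 66.9 ± 3.46 CPM for IP and 69.8 ± 4.84 CPM for INPUT, a log2 ratio of −0.06 (standard error 0.07). Of the other genes around Peg13, Kcnk9, a potassium channel, had a ratio of −2.28, Chrac1, a chromatin factor subunit, −1.25, and Ago2, the slicing Argonaute protein, 0.18. Peg13 thus had a lower ratio than each of these 4 neighbours.

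Miat lies at chr5:112213228-112229395 on the minus strand and is an abundant neuronal RNA that forms its own nuclear domains. It is known for copies of TACTAAC, a sequence like the branch point that splicing factor 1 binds in introns. The longest transcript in GENCODE M21 holds 6 copies on the sense strand and 0 on the other. Of 7500 long noncoding transcripts of at least 1000 bases, 7.05% held any copy on the sense strand and 2 held 6 or more. By copies per kb, 1.35% were at least as dense as this Miat transcript. The stretch shown, chr5:112216747-112216817 on the minus strand, has 3 of the copies in capitals and is printed because Miat is known for this repeat.
Miat repeats: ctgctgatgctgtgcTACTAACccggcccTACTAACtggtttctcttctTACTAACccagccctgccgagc
In their longest transcripts Kcnq1ot1 held 4 copies on each strand, Neat1 held 1 on the sense strand and Meg3 held 1 on the other, and none of Malat1, Rian, Mirg, Peg13, Tug1 and Pantr1 held any.

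Miat was at 30.9, 75.2, 82.4 and 97.2 CPM in naïve IP and at 13.9, 74.5, 92.1 and 99.6 CPM in stress IP. In INPUT it was at 210, 251.5, 323 and 389 CPM in naïve and at 57.6, 329, 357.5 and 360.1 CPM in stressed mice. It had the widest spread of the 10 RNAs in stress IP (7.16-fold from lowest to highest) and in stress INPUT (6.25-fold). The log2 ratio was −2.12 (standard error 0.29) in naïve mice, with no overlap, and in stressed mice, with overlap, it was 3.99-fold lower in IP (standard error of the log2 ratio 0.67). GENCODE also places an antisense noncoding gene over 24.3% of the exonic bases of Miat, and reads of these could not be told apart without strand.

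Tug1, an RNA found in both the nucleus and the cytoplasm, lies at chr11:3639785-3649673 beside Morc2a, an ATPase gene of the other strand with which it shares 483 exonic bases (4.96%). As for Miat, reads there could not be told apart without strand, which also holds for the 6.49% of Malat1 and 6.79% of Meg3 under antisense genes. Tug1 was at 82.2, 82.6, 87.6 and 91.4 CPM in naïve IP and at 83.6, 87.1, 90.5 and 95.8 CPM in stress IP. Its INPUT values were 140, 148.5, 148.6 and 149.5 CPM in naïve and 140, 144, 154 and 157.5 CPM in stressed mice. The fractions did not overlap in either condition, and the log2 ratios were −0.77 (standard error 0.05) and −0.74 (0.06), against −0.50 (0.07) for Morc2a in naïve mice.

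Pantr1 lies at chr1:42590782-42694842, next to Pou3f3, a transcription factor gene of neural development. It was at 48.1, 48.7, 55.1 and 58.8 CPM in naïve IP and at 46.7, 48.3, 51.3 and 53.3 CPM in stress IP. In INPUT it was at 29.0, 31.7, 34.1 and 34.5 CPM in naïve and at 27.5, 28.7, 32.4 and 34.5 CPM in stressed mice. It was the only one of the 10 RNAs with a higher level in IP, without overlap in either condition, and its log2 ratio was 0.70 in both (standard errors 0.08 and 0.09). Pou3f3 was also higher in IP, with a naïve log2 ratio of 1.21 (standard error 0.06).

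**Figure D2:**
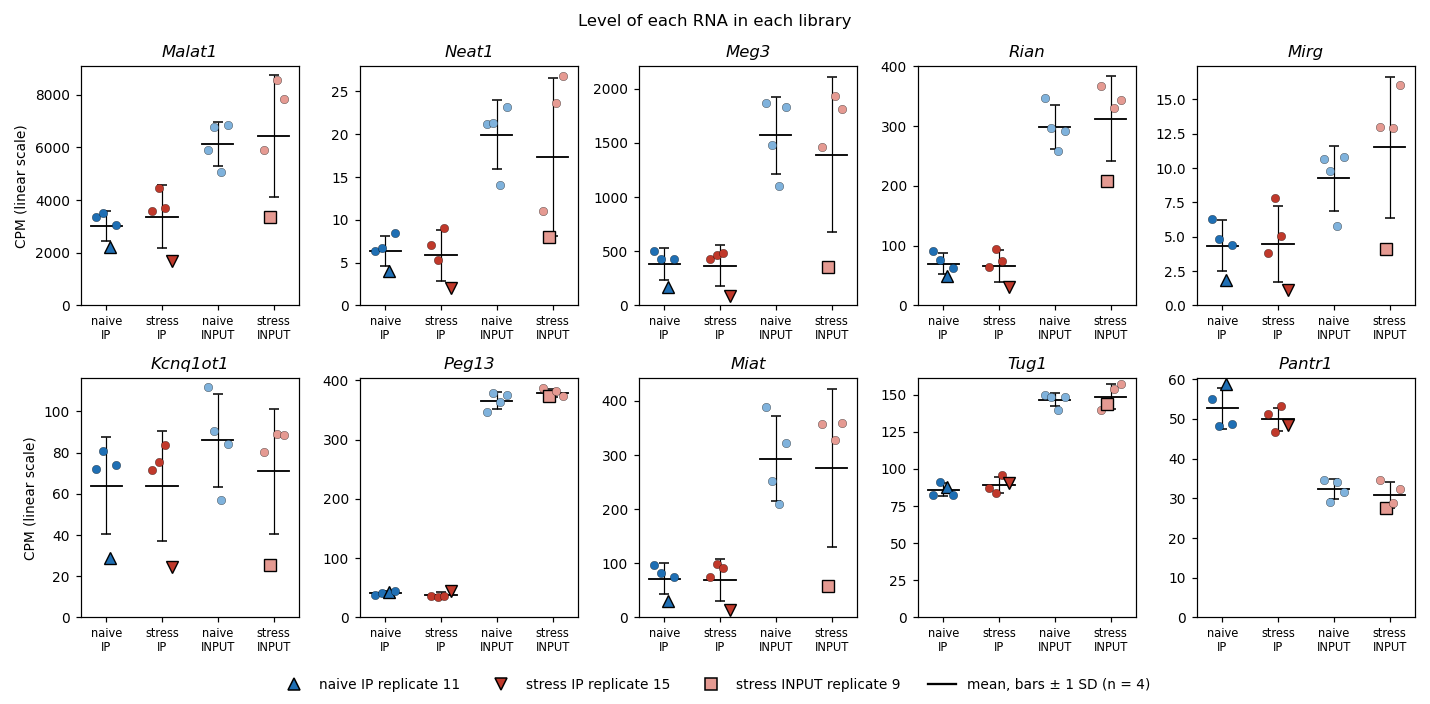
CPM of each of the 10 RNAs (1 panel each, linear axis from 0) in the 4 groups, with 1 point per library, a line at the mean and bars of ± 1 SD (n = 4). Triangles and squares mark naïve IP 11, stress IP 15 and stress INPUT 9, which lie at the bottom of their groups in 7 panels. For Pantr1 naïve IP 11 is highest (58.8 CPM) and stress INPUT 9 lowest (27.5 CPM) of its group, and Peg13 of stress IP 15 is at the top of its group (45.1 CPM).

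Levels of different genes were compared per kb of exonic length in GENCODE, since CPM is not divided by length. In naïve INPUT the order of the levels was Malat1 (881 ± 120 CPM per kb, SD, n = 4), Meg3 (86.8 ± 19.7), Peg13 (77.5 ± 3.15), Miat (31.6 ± 8.51), Rian (16.4 ± 2.03), Tug1 (15.1 ± 0.464), Pantr1 (7.25 ± 0.571), Mirg (1.27 ± 0.325), Neat1 (0.961 ± 0.194) and Kcnq1ot1 (0.924 ± 0.243). Meg3 and Peg13, Rian and Tug1, and Mirg, Neat1 and Kcnq1ot1 were neighbours in this order whose ranges of ± 1 SD met. In naïve IP the order of the levels was Malat1 (434 ± 81.4 CPM per kb), Meg3 (21.0 ± 8.09), Pantr1 (11.8 ± 1.15), Tug1 (8.83 ± 0.449), Peg13 (8.79 ± 0.524), Miat (7.68 ± 3.07), Rian (3.83 ± 0.979), Kcnq1ot1 (0.688 ± 0.254), Mirg (0.595 ± 0.253) and Neat1 (0.307 ± 0.0867). There the ranges of Meg3 and Pantr1 met, as did those of Tug1, Peg13 and Miat, of Miat and Rian, of Kcnq1ot1 and Mirg, and of Mirg and Neat1. Pantr1 stood below Peg13, Miat, Rian and Tug1 in INPUT and above them in IP. The authors counted on RefSeq genes, and these lengths are from GENCODE.

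Taken over all 10 RNAs, the median log2 ratio of IP over INPUT was −1.41 in naïve and −1.52 in stressed mice, against a median over all genes tested of −0.64 and −0.63. In naïve mice 8 of the 10 RNAs were past the threshold as lower in IP and Pantr1 as higher, where 64.0% of 13339 genes were lower and 23.7% were higher. The same split held in stressed mice, where 62.5% of 13333 genes were lower and 23.6% were higher. Kcnq1ot1 was not past the threshold in either. The values of IP and INPUT did not overlap for 8 of the 10 RNAs in naïve mice, against 83.7% of genes, and for 4 of the 10 in stressed mice, Rian, Peg13, Tug1 and Pantr1, against 81.4%. The rule that picked the RNAs used these fractions, so nothing is read from the counts. In bulk samples such as INPUT, fewer cells of a type and less RNA per cell cannot be told apart. The ratio sets astrocyte ribosomes against RNA of all cells, so astrocyte level and ribosome binding cannot be told apart in it either.

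Because the median gene was itself lower in IP, the ratios are also given relative to it. On that scale Peg13 was at −2.50, Meg3 and Rian at −1.49, Miat at −1.48, Neat1 at −1.02, Mirg at −0.52, Malat1 at −0.39, Tug1 at −0.13, Kcnq1ot1 at 0.15 and Pantr1 at 1.34 in naïve mice. Peg13 ranked low among all genes, with 8.21% of them at a lower ratio, whereas 17.4 to 17.6% lay below Meg3, Rian and Miat, 37.7% below Malat1 and 45.8% below Tug1. With libraries rescaled by their median ratio, 42.0% of genes were higher and 42.2% lower in naïve mice, and 6 of the 10 RNAs were lower and 1 higher. In stressed mice that scaling left 41.0% of genes higher and 41.3% lower, with 2 of the RNAs, Rian and Peg13, lower and 1 higher. Malat1 depended most on the scaling, at −0.39 and −0.30 with median ratios and at −2.82 and −2.92 with quantile normalization.

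**Figure D3:**
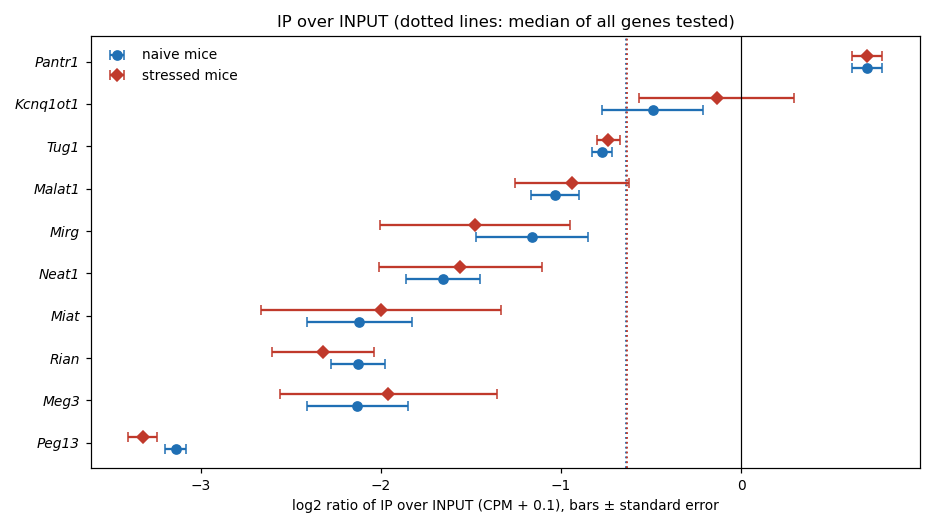
Log2 ratio of IP over INPUT of each RNA in naïve (circles) and stressed mice (diamonds), with bars of ± 1 standard error and dotted lines at the median of all genes tested (−0.64 and −0.63). Pantr1 lies at 0.70 in both conditions, Kcnq1ot1 and Tug1 lie near the dotted lines, and Peg13 is lowest at −3.14 and −3.32.

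Other gene groups give the scale of these ratios. Of RefSeq long noncoding RNAs outside the 10, 317 were tested in naïve mice, with a median log2 ratio of −1.23, 233 lower and 40 higher. Of 17 other nuclear or brain long noncoding RNAs, 16 were lower (median −1.38), and the exception was Xist at 1.23 with a standard error of 2.80. The lowest of that list were Rmrp (−4.45) and Rpph1 (−3.34), the RNA subunits of RNase MRP and RNase P, and Dlx1as (−3.77), antisense to an interneuron transcription factor. The highest beside Xist were Jpx (−0.88), an activator of Xist, and Snhg11 (−1.17).

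Genes that host snoRNAs in their introns were lower in 11 of 12 cases (median −1.42), with Snhg8 (−2.67), Snhg6 (−2.50) and Snhg12 (−2.33) lowest and Snhg18 (0.13), Snhg5 (−0.32) and 1110038B12Rik (−0.55) highest. Of 19 other imprinted genes, 12 were lower and 4 higher (median −0.84). Usp29 (−3.60), Grb10 (−3.37), a brake on insulin receptor signalling, and Ndn (−3.14) were the lowest, and Plagl1 (1.37), a zinc finger factor, Nnat (0.99) and Sgce (0.28) the highest. The genes of 10 speckle and paraspeckle proteins had a median of −0.28, from −0.97 for Pspc1 to 0.34 for Srrm2. Tardbp (−0.62) and Srsf1 (−0.53) were next lowest and Nono (0.11) and Son (0.02) next highest. The 10 coding neighbours that passed the filter had a median of −0.24, with 5 lower and 3 higher. They include Frmd8 (0.58), which lies near Malat1 and Neat1. In stressed mice the medians of these lists were −1.21, −1.59, −0.82, −0.29 and −0.26 in the same order.

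**Figure D4:**
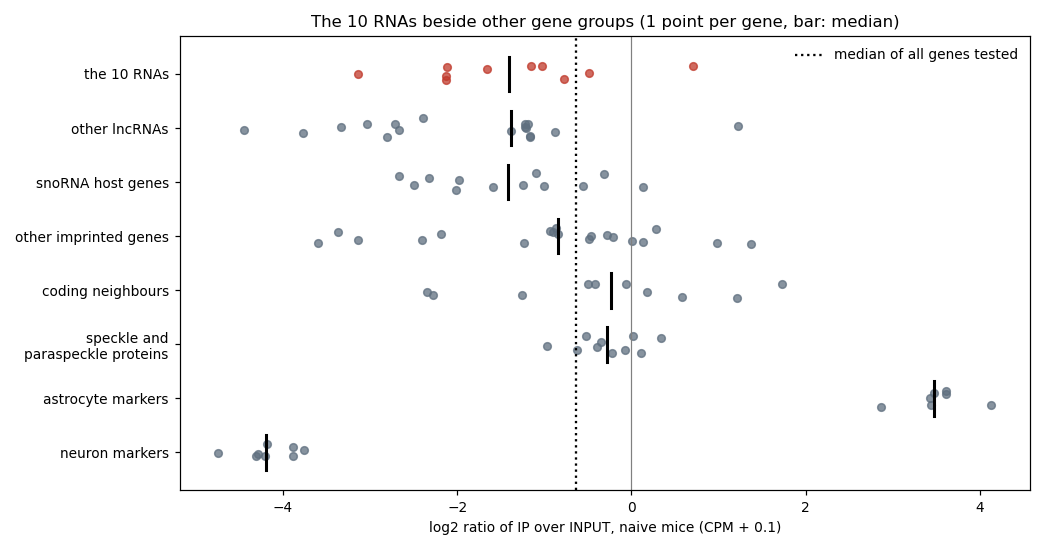
Log2 ratio of IP over INPUT in naïve mice for each gene (1 point) of the 10 RNAs and of 7 other lists, with a bar at the list's median and a dotted line at the median of all genes tested (−0.64). The medians were −1.41 for the 10 RNAs, −1.38 for other long noncoding RNAs and −1.42 for snoRNA host genes, between those of the neuron markers (−4.19) and the astrocyte markers (3.47).

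The 7 RNAs of the library pattern also varied together within groups. Over the 8 IP libraries, with group means subtracted, the Pearson correlations of their 21 pairs had a median of 0.955 (0.757 to 0.996). Over the 8 INPUT libraries the median was 0.926 (0.641 to 0.980). Between the 7 and Peg13, Tug1 and Pantr1, the median was −0.243 in IP and 0.411 in INPUT. All these values come from the same libraries, and much of them rests on the low ones. Without naïve IP 11 and stress IP 15 the median within the 7 was 0.256 (−0.829 to 0.948), and without stress INPUT 9 it was 0.736 in INPUT (−0.0247 to 0.909).

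The genes most like Malat1 over the 8 IP libraries, among 10072 genes, were Tia1 (r = 0.997), Nktr (0.991), Apip (0.990), A330023F24Rik (0.990) and Cd2ap (0.986). Without naïve IP 11 and stress IP 15 these correlations were 0.965, 0.913, 0.900, 0.846 and 0.843, and over the 8 INPUT libraries they were 0.767, 0.899, 0.573, 0.877 and 0.736. Most like Meg3 were Miat (r = 0.996), Ilf2 (0.996), Pabpn1 (0.995), C230091D08Rik (0.993) and Hsf1 (0.992). For Meg3 the values without those libraries were 0.882, 0.561, 0.530, 0.796 and 0.665, and over INPUT they were 0.980, −0.576, 0.936, 0.944 and 0.896. The likeness to Malat1 thus held above 0.84 without the 2 low libraries, while that to Ilf2 had the opposite sign in INPUT. These are descriptions over few libraries, chosen as the highest of many.

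Genes outside the 10 shared the low levels. At least 2-fold lower in both stress IP 15 and stress INPUT 9 were 37 genes (0.333% of 11115), and 6 of these were of the 10 RNAs, namely Miat, Meg3, Mirg, Neat1, Kcnq1ot1 and Malat1. In naïve IP 11 as well, 12 genes were that low (0.108%), with Miat, Meg3, Mirg and Kcnq1ot1 among them. RefSeq calls 9 of the 31 other genes long noncoding RNAs (29.0%), against 127 of the 10536 genes with a mean above 5 CPM and a RefSeq symbol, the 10 included (1.21%). Xist, which was low in all these libraries, is among these 9 and among the 12, at −8.01 in stress IP 15 and −5.28 in stress INPUT 9. Also among the 9, A330023F24Rik had a log2 difference of −2.09 in stress IP 15 and −2.11 in stress INPUT 9, and Snhg11 of −1.87 and −2.18. The X-linked noncoding RNAs Ftx and Firre were at −1.55 and −1.35 in stress IP 15. Coding genes were there too, such as Trank1 at −1.71 and −1.81, and Ttr, the transthyretin gene of the choroid plexus, at −2.91 and −2.87. These genes were picked from their values.

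Lists close to the 10 RNAs varied in these libraries. In stress IP 15 the 9 coding neighbours measured had a median log2 difference of 0.01 from the other libraries of the group, 17 other imprinted genes 0.08, and 10 speckle and paraspeckle proteins −0.22, with none of them at least 2-fold lower. In stress INPUT 9 these medians were 0.02, 0.01 and −0.11. The 4 snoRNA host genes measured had medians of −0.42 in stress IP 15 and −0.39 in stress INPUT 9, against −0.01 and −0.02 over all genes. In stress INPUT 9, 4 of 4 were lower, where 6158 of 11114 genes were lower.

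Of 14 other long noncoding RNAs, Xist left out, 3 were at least 2-fold lower in stress IP 15 (0.810% of genes) and 3 in stress INPUT 9 (0.603%), with medians of −0.08 in both. In naïve IP 11, 12 of the 14 were lower, with a median of −0.40, where 6966 of 11114 genes were lower. RefSeq long noncoding RNAs outside the 10 were at least 2-fold lower in 9 of 116 cases in each of stress IP 15 and stress INPUT 9. Some went the other way. Rmrp had log2 differences of 1.98 in stress IP 15 and 1.21 in stress INPUT 9 and was the highest of its group in naïve INPUT 14 (779.8 CPM, group from 81.8 CPM), and Rpph1 was at 0.82 in stress IP 15 and 0.52 in stress INPUT 9.

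The comparison of stress with naïve asked whether a swim changes what astrocyte ribosomes carry or what the cortex holds. None of the 10 RNAs passed the threshold in IP (limma, Benjamini-Hochberg adjusted p under 0.05), where 55 of 12501 genes did (0.440%). In INPUT 0 of the 10 passed, where 6 of 13577 genes did (0.0442%). The difference between the 2 stress effects was past the threshold for 0 of the 10 and for 3 of 13341 genes (0.0225%). An unadjusted p under 0.05 was reached by 0 of the 10 RNAs in each, against 8.27%, 5.03% and 4.71% of genes, and limma-voom on the recovered reads called 0 as well. The lowest adjusted p of the 10 was 0.755 in IP, for Peg13, and 0.994 in INPUT.

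Malat1 in IP had a log2 fold change of 0.08 for stress over naïve (standard error 0.25, 95% interval −0.47 to 0.64, exact permutation p = 0.771), and in INPUT of −0.01 (0.22, −0.49 to 0.46, exact permutation p = 0.971). For Meg3 the change was −0.23 in IP (0.52, −1.36 to 0.90, exact permutation p = 0.743) and −0.40 in INPUT (0.40, −1.27 to 0.47, exact permutation p = 0.743). For Miat it was −0.24 in IP (0.55, −1.45 to 0.97, exact permutation p = 0.800) and −0.36 in INPUT (0.46, −1.35 to 0.62, exact permutation p = 0.857). In IP the intervals of Meg3, Miat, Mirg and Neat1 reached below −1, and in INPUT those of Meg3, Miat, Neat1 and Kcnq1ot1 did. A 2-fold fall of these RNAs in these fractions thus lay within the error of these libraries.

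For the steady RNAs the intervals were narrower. Tug1 changed by 0.05 in IP (95% interval −0.08 to 0.19) and 0.02 in INPUT (−0.10 to 0.14). Pantr1 changed by −0.07 in IP (−0.25 to 0.10) and −0.07 in INPUT (−0.26 to 0.12), and Peg13 by −0.13 in IP (−0.33 to 0.06) and 0.05 in INPUT (−0.05 to 0.15). None of these was past the threshold, and the naïve and stress values of every RNA overlapped in both fractions, where 5.00% of genes did not overlap in IP and 2.87% did not in INPUT. The remaining RNAs, Neat1, Rian, Mirg and Kcnq1ot1, had values between −0.26 and −0.04 in IP and between −0.40 and 0.19 in INPUT. The exact permutation p of single RNAs, two-sided over 70 labelings with a smallest possible p of 0.029, was at least 0.171.

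In IP, which library was left out decided the sign of the change for each of the 7 RNAs of the pattern. The change of Meg3 in IP was −0.59 without naïve IP 11 and 0.39 without stress IP 15, and that of Miat was −0.60 and 0.42. Without both libraries, an alternative chosen after seeing the data, Meg3 was at 0.03 (95% interval −0.13 to 0.19), Miat at 0.06 (−0.18 to 0.30) and Kcnq1ot1 at 0.02 (−0.14 to 0.19). Malat1 was then at 0.25 (0.06 to 0.43, limma adjusted p = 0.228) and Peg13 at −0.21 (−0.37 to −0.04, adjusted p = 0.273), neither past the threshold. In INPUT without stress INPUT 9, Mirg was at 0.62 (0.23 to 1.02, limma adjusted p = 0.425), Malat1 at 0.27 (0.02 to 0.52, adjusted p = 0.737), Rian at 0.22 (0.05 to 0.39, adjusted p = 0.619) and Meg3 at 0.17 (−0.14 to 0.47). Unlike in IP, this fit kept the low naïve library, naïve INPUT 14, where these RNAs were the lowest of their group. With naïve INPUT 14 left out instead, Mirg was at −0.02, Malat1 at −0.10, Rian at −0.03 and Meg3 at −0.56. A fit without both INPUT libraries was not run. The count of RNAs past the threshold was 0 in each of these fits.

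**Figure D5:**
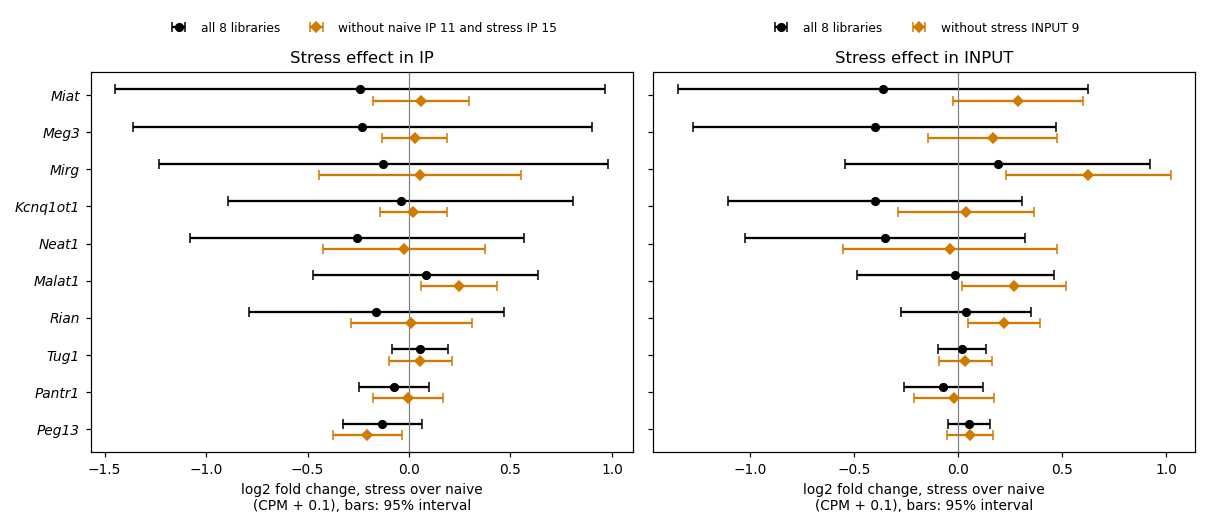
Log2 fold change of stress over naïve for each RNA in IP (left) and INPUT (right), with bars for the 95% interval. Black circles use all 8 libraries of the fraction, and orange diamonds leave out naïve IP 11 and stress IP 15 (left) or stress INPUT 9 (right). The low library of the naïve group was thus left out on the left but kept on the right. The interval of Meg3 in IP narrows from −1.36 to 0.90 with all libraries to −0.13 to 0.19 without those 2.

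Gene lists around the 10 RNAs had no calls under stress either. In IP and in INPUT, 0 genes passed the threshold among the coding neighbours (11 and 10 tested), other long noncoding RNAs (18 and 17), snoRNA host genes (10 and 13), other imprinted genes (18 and 19) and speckle and paraspeckle proteins (10 and 10). An unadjusted p under 0.05 was reached in IP by 2 genes of these lists, where 8.27% of all genes tested reached it. They were Pou3f3 beside Pantr1, at −0.22 (standard error 0.06, limma adjusted p = 0.187), and the noncoding Pvt1, at −0.46 (0.18, adjusted p = 0.523). The IP level of Pou3f3 was 231 ± 15.8 CPM in naïve against 198 ± 1.14 CPM in stressed mice (SD, n = 4 each). In INPUT 1 gene reached an unadjusted p under 0.05, where 5.03% of all genes tested did. It was Cdkn1c near Kcnq1ot1, at −0.26 (0.12, adjusted p = 0.974). With shares of this size over all genes, nothing is read from these single genes.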

How the data were processed

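RNA was sequenced after ribosomal RNA depletion from IP and INPUT of the somatosensory cortex. Alignment to mm10 was by STAR and counting of uniquely mapped reads on RefSeq genes by HTSeq. The authors deposited log2 CPM per library, scaled to the library's own total, with no length correction and no scaling between libraries. The submitters' processing notes also name edgeR and limma. The floor of −6.40 stands for 0 reads, and 100% of values came out as whole reads (within 0.02 reads). No 2 libraries were identical. The labels do not name the mouse of a library, and the methods state that each mouse was homogenised singly. By the methods, INPUT was taken from the lysate that also gave the IP of that mouse. Fits across IP and INPUT treated the libraries as independent, so their standard errors leave this pairing out. Low libraries of IP and INPUT may thus share a mouse. The paper reports 4 mice in each group, and its methods give 4 males and 4 females. The 4 libraries of a group are thus taken as 4 mice, which the labels do not show. If they were technical replicates instead, p-values would measure technical spread only.

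Tests used limma 3.58.1 under R 4.3.3 (eBayes with a variance trend) on log2(CPM + 0.1), over all genes with a mean above 1 CPM, with Benjamini-Hochberg adjusted p under 0.05, and with two-sided exact permutation tests over 70 labelings (SciPy 1.17.1). A pseudocount understates changes of low genes. The fits were checked on simulated reads with 2-fold changes and the same spread for every gene (dispersion 0.0036). The RNAs of the library pattern spread more than that, so the check does not show how well a change in them would be found. Annotation and sequences are from GENCODE M21 on GRCm38, the assembly of mm10, and RefSeq gave the noncoding class. The 10 RNAs and all lists were chosen with earlier results of these data known. All 10 are named, with coding neighbours (1 is not reported here), the 3 highest and 3 lowest ratios of each list, list genes past the threshold under stress, and the 5 genes most like Malat1 and Meg3. Other genes were named from their values. Alternatives were pseudocounts of 1 and 0.01, no filter or a mean above 5 CPM, median-ratio scaling, quantile normalization, limma-voom on recovered reads, array weights, no variance trend, a single model of all 16 libraries, a covariate for Xist, and each library left out. Leaving out the low libraries together was added after seeing the data. Depth limits cover counting error only, since PCR copies reads.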

Additional observations from a re-analysis of the deposited data

Results flagged for a closer look

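In each of 40 sets of 4 values (10 RNAs in 4 groups), the gap from the lowest or highest library to its nearest neighbour was set against the range of the group by Dixon's ratio. A library stood apart in 4 of the 40. Such a gap arises by chance in about 1 in 20 groups not chosen for their spread, but these RNAs were chosen with their spread between libraries known, so the gaps are given as a description and not as a test. Meg3 was at 82.93 CPM in stress IP 15, against 424.1 to 487.9 CPM in the other 3 libraries. Miat was at 57.58 CPM in stress INPUT 9, against 328.6 to 360.1 CPM. Kcnq1ot1 was at 25.54 CPM in the same library, against 80.1 to 89.2 CPM. Tug1 was at 139.9 CPM in naïve INPUT 14, against 148.5 to 149.5 CPM, a small difference in a group that was otherwise very tight.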

How the results depend on the processing

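Of 1154 values recomputed under an alternative, the count of RNAs past the threshold stayed at 0 in each of the 3 stress comparisons under every alternative run, leaving out libraries included. Among single stress values 70 took another sign, none past the threshold. The median ratio of IP over INPUT of the 10 RNAs ranged with single libraries left out from −1.59 to −1.17 in naïve and from −1.89 to −1.03 in stressed mice, and was −1.41 in stressed mice without IP 15 and INPUT 9. Median-ratio scaling, which by construction moves the median gene to about 0, brought it to −0.77 in naïve mice. Kcnq1ot1 turned from −0.49 to 0.15 (median-ratio scaling) and 0.047 (quantile normalization) in naïve mice, and from −0.13 to 0.50 and 0.41 in stressed mice, where it ranged from −0.57 to 0.27 with single libraries left out. It was past the threshold in naïve mice without INPUT 14 (−0.67) and with Xist as a covariate. Another 21 single ratios moved by more than the spread between libraries without a change of sign, all under these 2 scalings. Median-ratio scaling ended the naïve calls of Mirg and Tug1 and the stressed calls of Malat1, Neat1, Meg3, Mirg, Miat and Tug1, and quantile normalization those of Mirg (naïve), Neat1, Mirg and Miat (stressed). In stressed mice the call of Mirg was also lost without INPUT 1, 10 or 12, and that of Malat1 without INPUT 10. The RNAs were picked with both fractions known, so these calls of ratios are descriptions and test nothing. Calls over all genes under stress in IP were 143 with array weights, 124 with all 16 libraries in one model and 19 without a variance trend, against 55. In INPUT they were 50, 2 and 0, against 6, and for the difference of the effects 19 with array weights and 2 without a trend, against 3. No paired analysis was possible because the libraries carry the numbers 1 to 16, none shared between groups. Depth limits Mirg and Neat1 most, with as few as 28 and 51 reads in stress IP 15.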
